A study of Mus musculus with 32 samples.

Results

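The collagen genes were taken as every gene of the expression tables whose symbol has the form Col, a number, the letter a and a number, and 44 of 23154 genes met that rule. The values come from single cells of 8 organs (heart and somite, skin, the gut-derived intestine, liver and lung, and the forebrain and hindbrain) of 7 untreated wild-type C57BL/6J mouse embryos, of which 3 were taken at embryonic day 9.5 (E9.5) and 2 on each of the next days (E10.5, E11.5). E9.5 embryo 2 is labelled female and the others male. The study kept 1819 cells, and its cell table puts 1815 of them in an epithelial (EC, 307 cells), hematopoietic (HC, 249 cells), mesoderm-derived (MC, 875 cells) or neuronal (NC, 384 cells) group, and labels 289 cells of intestine, liver, lung and skin as epithelial (Epi) and 352 as mesenchymal (Mes). The study built these groups and labels from the same cells, the groups by regulon activity (the inferred activity of transcription factors). A test between groups is thus not independent of how the cells were grouped. The study named MC by marker genes that include Col3a1 and Pcolce. Its mesenchymal score holds types I and III and its epithelial score type IV, but these scores did not build the groups.

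Collagens are proteins of the extracellular matrix whose chains wind into triple helices inside the cell and assemble into larger structures outside it. Fibrillar collagens (types I, III and V) form the cable-like fibrils of connective tissue and are made mainly by mesenchymal cells, while type IV collagen forms the sheet-like network of basement membranes, the thin layers on which epithelia rest, together with the collagen-proteoglycan type XVIII. Types II, IX and XI are the collagens of cartilage, and type II is also known in embryos from the notochord, the developing brain and several epithelia. Other families link or cover these structures, as the beaded filaments of type VI and the fibril-associated types XII and XIV do, or span the cell membrane, as types XIII, XVII, XXIII and XXV do.

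The 44 genes were divided into 8 interstitial fibrillar, 7 cartilage, 8 basement membrane, 6 beaded filament, 6 fibril-associated and 4 transmembrane collagens and 5 network, anchoring and other collagens. A level is the mean over the cells of an embryo of log2(TPM/10 + 1), where TPM stands for unique molecules (UMIs) scaled to 1000000 in each cell. A cell with a value of at least 1 on this scale expressed the gene. A difference passed the test when the adjusted p of limma (a linear model across all genes on embryo means, Benjamini-Hochberg adjustment) was under 0.05 and the difference was at least 1 on the log2 scale, or at least 0.5 per day for a slope. All 44 collagens had a UMI in grouped cells, 43 were expressed in at least 3 of them, 37 in at least 1% and 17 in at least 10%. Col18a1 was expressed in 60% of the grouped cells, Col4a1 in 50.5%, Col3a1 in 48.5%, Col1a2 in 45.4% and Col2a1 in 43.2%. At the other end, Col28a1 was expressed in 2 cells, and Col15a1, a relative of Col18a1 that is often found in vessel basement membranes, in 0.606%.

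Depth per kept cell ranged from 20326 to 2524348 UMIs with a median of 306642. E9.5 embryo 2 stood apart with a median of 928653, against 192177 to 310642 in the other 6 embryos, and E9.5 embryos 1 and 2 are labelled HiSeq 2500 while the others are labelled HiSeq 4000. The group names were in keeping with their marker lists: the summed level of 6 epithelial markers was 27.5 to 32.9 in EC and at most 6.29 elsewhere, that of 5 neural markers 12.3 to 16.6 in NC and at most 3.33 elsewhere, that of 5 blood markers 18.3 to 38.2 in HC and at most 13.8 elsewhere, and that of 5 mesenchyme markers 5.62 to 8.02 in MC and at most 2.26 elsewhere. MC was mixed, since the 5 cardiomyocyte markers summed to 4.23 to 23.7 there, and HC held them at 0.892 to 23.5.

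Collagens were first compared among the 4 major groups, each against the mean of the other 3. MC were higher in 7 of the 43 collagens tested, against 1.21% of the 17432 genes tested, and 4 of those 7 were interstitial fibrillar collagens. EC were higher in 3 collagens, all of them of basement membranes, against 1.89% of all genes. HC were lower in 6 collagens (4.19% of all genes, and 6.88% in either direction) and NC in 3 (1.15%, and 3.29% in either direction), and neither group was higher in any collagen (2.69% and 2.14% of all genes). In HC these were Col18a1 (−1.56), Col4a1 (−1.52), Col2a1 (−1.48), Col3a1 (−1.33, in 6 of 7 embryos), Col1a2 (−1.26) and Col4a2 (−1.15), and in NC Col3a1 (−1.44), Col4a1 (−1.12) and Col1a2 (−1.10).

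Among the fibrillar collagens of MC, Col3a1, the single chain of type III collagen, stood first. Its level was 1.67 to 4.69 (median 3.99) in the 7 embryos in MC, 0.16 to 1.62 in EC, 0.14 to 0.69 in HC and 0.01 to 0.61 in NC, and it was expressed in 81.8% of MC cells. The lowest MC embryo, E9.5 embryo 1, was just above the highest EC embryo, and no embryo of another group reached the MC range. The difference was 3.27 ± 0.25 (SE, n = 7 embryos; limma, adjusted p = 1.88e-10). The gene lies at chr1:45311538-45349706 on the plus strand (mm10, GENCODE M21), next to Col5a2 (chr1:45374321-45503282, minus strand), which passed the test in the same direction. Its promoter is shown because Col3a1 was higher in MC and in the Mes cells of all 4 organs described further on: RefSeq (GRCm38.p6) gives the 250 bases before its start as chr1:45311288-45311537 on the plus strand. Of 3 motifs searched on both strands (the CCAAT box, the TATA box TATAAA and the GC box GGGCGG), the window holds only 1 TATAAA, in capitals, which 12.4% of the 32851 RefSeq windows of the same length hold. The search took any position, and this match lies near the middle of the window, so it is not shown to be a working TATA box.
Col3a1: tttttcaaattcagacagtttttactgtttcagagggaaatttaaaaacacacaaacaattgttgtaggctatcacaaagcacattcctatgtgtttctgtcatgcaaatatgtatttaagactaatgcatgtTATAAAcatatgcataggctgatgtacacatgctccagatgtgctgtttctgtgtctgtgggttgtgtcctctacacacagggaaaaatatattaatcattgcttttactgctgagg

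Type I collagen is built from the chains of Col1a1 and Col1a2, and both were higher in MC. Col1a2 was at 1.72 to 3.69 (median 3.46) in MC and averaged 1.04 ± 0.34 (SD, n = 7 embryos) in EC, with the lowest MC embryo above the highest EC embryo. Its difference was 2.57 ± 0.18 (SE; limma, adjusted p = 3.42e-11). Col1a1 was at 0.76 to 2.64 (median 2.38) in MC and 0.18 to 1.01 in EC, so that these ranges overlapped, with a difference of 1.77 ± 0.17 (adjusted p = 1.98e-08). UMIs count molecules and need no correction for gene length, and in MC those of Col1a1 were 0.435 times those of Col1a2 in the median embryo (range 0.286 to 0.561), although the type I helix usually holds more of the Col1a1 chain, and 444 of 875 MC cells expressed both genes, which is 63.2% of the cells with either.

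The remaining interstitial fibrillar collagens were lower in level. Col5a2, a chain of the type V collagen that starts and thins type I fibrils, was at 1.08 to 2.19 in MC and 0.28 to 1.47 in EC, overlapping, and differed by 1.21 ± 0.12 (adjusted p = 2.01e-08). Its partner Col5a1 averaged 1.32 ± 0.24 (SD, n = 7) in MC and 0.86 ± 0.31 in EC, and its difference of 0.83 stayed under the size threshold. Col5a3, Col24a1 and Col27a1 averaged 0.46 or less in MC. The median difference of the 8 fibrillar collagens in MC was 1.02, beside −0.01 over all genes tested.

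**Figure D1:**
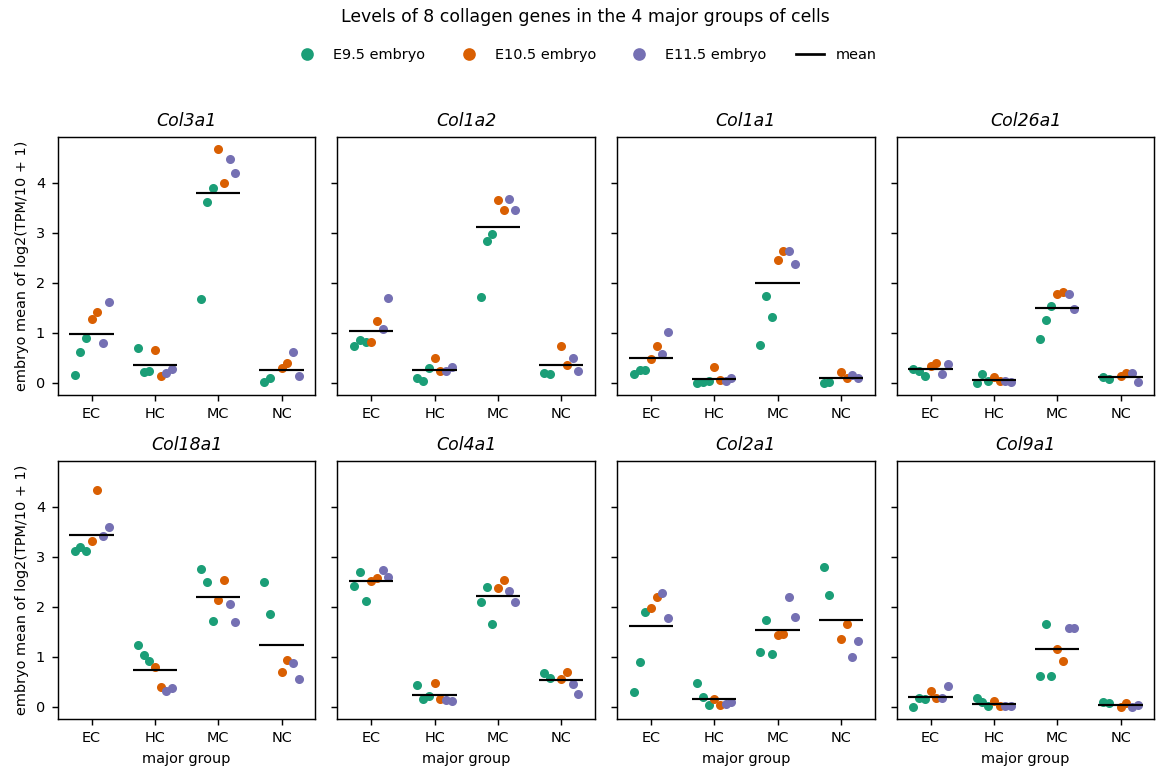
Level of 8 collagens, as the embryo mean of log2(TPM/10 + 1), in the EC, HC, MC and NC groups. Each point is an embryo coloured by embryonic day and each line is the mean over embryos. Col3a1, Col1a2, Col1a1 and Col26a1 are highest in MC, Col18a1 in EC, Col4a1 is high in both, and Col2a1 lies in the same range in EC, MC and NC.

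Of the 8 basement membrane collagens 3 were higher in EC, and 1 of these, Col4a1, also in MC. Col18a1, whose C-terminal piece is released as endostatin, was at 3.11 to 4.33 (median 3.32) in EC, 1.70 to 2.77 in MC, 0.55 to 2.49 in NC and 0.33 to 1.23 in HC. Every EC embryo lay above every embryo of the other groups, and 87.3% of EC cells expressed the gene. The difference was 2.05 ± 0.21 (SE, n = 7; limma, adjusted p = 2.74e-08). Col4a1 and Col4a2, which together build the type IV network found in nearly all basement membranes, start 21 bases apart on opposite strands of chromosome 8 and overlap by 22 bases, where reads of one cannot be told from the other unless strand was used. Col4a1 was at 2.12 to 2.74 in EC and 1.67 to 2.53 in MC, and it passed the test in both groups, by 1.53 ± 0.10 (adjusted p = 2.02e-12) in EC and 1.11 ± 0.10 (adjusted p = 3.45e-09) in MC. Col4a2 was at 1.19 to 2.65 in EC and 1.12 to 2.01 in MC and passed only in EC, by 1.33 ± 0.15 (adjusted p = 1.38e-07); that the groups differ in this was not tested. Both genes were low in NC and HC, with Col4a1 at 0.26 to 0.69 in NC and 0.11 to 0.48 in HC. Col4a3 and Col4a4, which share a start region on chromosome 1 and build the network of mature kidney and lung, averaged 0.14 or less in every group, and Col4a5 averaged 0.66 ± 0.27 (SD, n = 7) in EC and 0.65 ± 0.28 in MC.

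Cartilage collagens were spread over 3 of the groups. Col2a1, the chain of type II collagen, was at 1.01 to 2.80 (median 1.51) in NC, 0.30 to 2.28 (median 1.89) in EC and 1.05 to 2.20 (median 1.45) in MC. These ranges overlapped and no group was higher by the test, but HC, at 0.04 to 0.48, were lower by 1.48 ± 0.23 (SE; limma, adjusted p = 5.53e-06). In forebrain NC the level was 3.05 and 2.52 in E9.5 embryos 1 and 2, 1.51 and 0.90 at E10.5 and 0.53 and 0.64 at E11.5, whereas in hindbrain NC it was 2.54, 2.14, 1.36, 2.33, 1.54 and 2.13 in the same order. The forebrain values were thus lowest in both E11.5 embryos and the hindbrain values showed no such order, but this was not tested. The E9.5 values of NC come only from embryos labelled HiSeq 2500 and the later ones from HiSeq 4000. Day and instrument thus cannot be told apart here. Col9a1, a chain of the type IX collagen that coats type II fibrils, was at 0.62 to 1.65 in MC and 0.00 to 0.42 in EC, without overlap, and was higher in MC by 1.06 ± 0.10 (adjusted p = 1.52e-08). Its partners Col9a2 and Col9a3 averaged 0.22 and 0.35 in MC, and only 14.8% of the MC cells with Col9a1 or Col9a3 had both. Col11a1, which forms mixed fibrils with type II, averaged 1.14 ± 0.32 (SD, n = 7) in MC, 0.75 ± 0.45 in NC and 0.68 ± 0.33 in EC, and none of its differences reached the size threshold, the nearest being −0.82 in HC. The call of Col9a1 in MC was lost without E9.5 embryo 2, E11.5 embryo 1 or E11.5 embryo 2, with the difference at 0.98 to 1.15 over all embryos left out in turn.

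Of the other families, only Col26a1, a short collagen that is secreted and first known from testis and ovary, passed the test in MC. It was at 0.88 to 1.82 (median 1.54) in MC and 0.15 to 0.41 in EC, without overlap, and differed by 1.35 ± 0.08 (SE, n = 7; limma, adjusted p = 7.11e-12). The transmembrane collagens Col13a1, Col23a1 and Col25a1 were expressed in 19%, 29.7% and 11.1% of MC cells and in 0.326%, 5.54% and 2.61% of EC cells, but their levels were too low for a difference of 1. Col17a1, the transmembrane collagen of the hemidesmosomes that fix epithelia to their basement membrane, was expressed in 7.49% of EC cells and 1.14% of MC cells. Among beaded filament collagens, Col6a1 and Col6a2 averaged 0.62 ± 0.33 (SD, n = 7) and 0.51 ± 0.18 in MC and 0.22 or less elsewhere, Col6a5 was expressed in 1.95% of EC cells and Col6a6 in 0.571% of MC cells.

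Summed over the classes in TPM, the interstitial fibrillar collagens reached 740 ± 307 (SD, n = 7) in MC, 146 ± 92.1 in EC, 35.4 ± 20.1 in NC and 17.5 ± 10.4 in HC. The basement membrane collagens reached 396 ± 126 in EC, 248 ± 58.1 in MC, 58.0 ± 29.5 in NC and 22.5 ± 8.85 in HC. With cells thinned to 100000 UMIs, the median MC cell had a UMI of 10 collagens, the median EC cell of 6, NC cell of 3 and HC cell of 1 (12, 9, 4 and 2 without thinning). Of 20 collagen-modifying enzymes and chaperones of the endoplasmic reticulum, 3 were higher in MC, beside the 1.21% of all genes, among them Serpinh1, the collagen-specific chaperone (2.41), and Fkbp10 (1.54). Of 11 genes that process collagen outside the cell, Pcolce, which speeds removal of the procollagen tail (2.67), and Sparc, a collagen-binding matrix protein (2.72), were higher. Pcolce is among the marker genes by which the study named MC, so its value is not independent of that name. In HC, 4 of the 20 were lower, beside 4.19% of all genes, with Serpinh1 at −3.11.

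With edgeR on summed UMIs, the counts were 31 in MC, 14 in EC, 29 in HC and 17 in NC, the last split into 5 higher and 12 lower against 0 and 3 by limma (1 and 8 with log2(TPM + 1)), and Col3a1 in NC was not called by it (−1.02, adjusted p = 0.320, against −1.44). E9.5 embryo 1 had only 3 HC cells, and NC have no cells of E9.5 embryo 3.

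**Figure D2:**
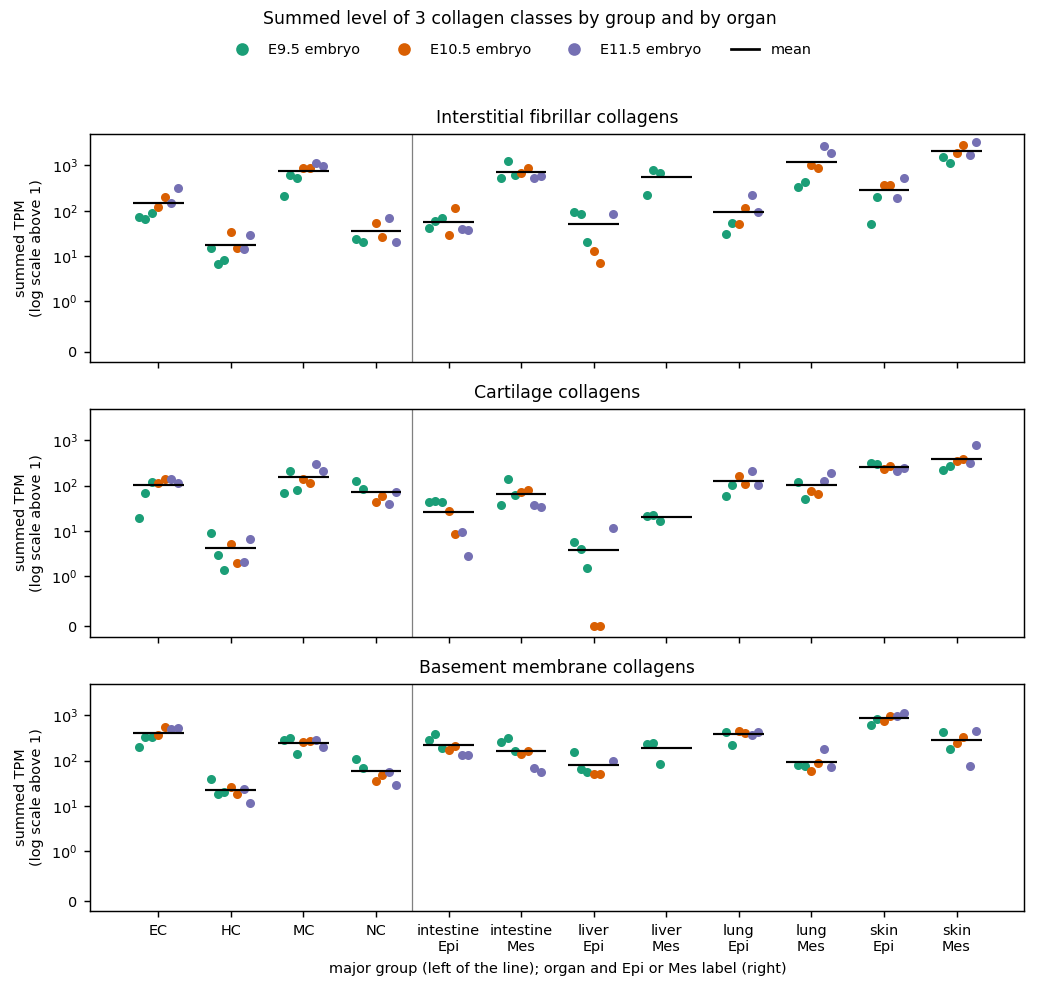
Summed TPM (UMIs scaled to 1000000 per cell) per embryo of the interstitial fibrillar, cartilage and basement membrane collagens in the 4 major groups and in the Epi and Mes cells of 4 organs, on an axis that is logarithmic above 1. Each point is an embryo; fibrillar sums are highest in skin Mes and basement membrane sums in skin Epi.

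The Epi and Mes cells of the same organ were then compared, which asks how the collagens of an epithelium and its mesenchyme differ. Mes were higher in 8 of the 41 collagens tested in intestine (1.49% of 15616 genes were higher there), 6 in liver (2.66%), 5 in lung (1.54%) and 6 in skin (1.38%). Col3a1, Col1a2 and Col5a2 were higher in Mes of all 4 organs by limma, the call of Col5a2 in skin being lost with edgeR (adjusted p = 0.467). With edgeR the split in lung was 12 higher and 3 lower in Mes. Epi were higher in 3 collagens in lung (1.95% of all genes) and 2 in skin (2.32%), and in none in intestine (2.44%) or liver (3.11%). In either direction 3.93% of all genes were called in intestine, 5.77% in liver, 3.48% in lung and 3.7% in skin.

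Col3a1 separated the labels without overlap in each organ. It was at 4.59 to 5.46 in intestine Mes and 0.32 to 1.24 in intestine Epi (n = 7 embryos), which gave the largest collagen difference of the comparison, 4.42 ± 0.33 (SE; limma, adjusted p = 1.56e-14). In skin it was at 5.30 to 6.78 in Mes and 0.72 to 3.02 in Epi (n = 6), a difference of 4.04 ± 0.35 (adjusted p = 2.56e-12), and 68.4% of skin Epi cells expressed it. In lung the difference was 4.12 ± 0.35 and in liver 3.12 ± 0.43. The Epi cells of intestine, lung and liver reached at most 1.24, so that skin Epi overlapped them only in its lowest embryos, and whether they differ was not tested. The summed level of the 5 mesenchyme markers was also higher there (1.56 to 5.73, against at most 1.67 in the other Epi sets and 11.496 to 17.0 in skin Mes, with none of the 5 at 0 in skin), and its part in the Col3a1 level was not tested.

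The type I chains varied more between organs. Col1a1 was at 3.44 to 5.87 in skin Mes and 0.16 to 1.93 in skin Epi, a difference of 3.63 ± 0.53 (limma, adjusted p = 1.12e-06). In lung Mes it ranged from 0.53 to 5.37 and overlapped lung Epi (0.00 to 1.58), with a difference of 2.17 ± 0.53 (adjusted p = 0.00485). In intestine the difference was 1.82 ± 0.49 (adjusted p = 0.00861), and it was 1.44 (adjusted p = 0.103) in the HiSeq 4000 embryos alone. Col1a2 was at 4.60 to 6.84 in skin Mes and 0.98 to 3.51 in skin Epi, and at 1.23 to 3.75 in intestine Mes, the lowest of the Mes sets by its mean (2.10 ± 0.89, SD, n = 7).

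Col18a1 went the other way in lung and skin. In skin Epi it was at 5.01 to 5.83 (median 5.60), expressed in 79 of 79 cells, and in skin Mes at 1.62 to 3.0 (median 2.17). In lung Epi it was at 3.20 to 4.64 (median 4.16) and in lung Mes at 0.36 to 1.10 (median 0.52). Neither pair of ranges overlapped, and Mes were lower by 3.33 ± 0.40 in skin (SE, n = 6; limma, adjusted p = 1.44e-08) and 3.40 ± 0.40 in lung (adjusted p = 1.52e-08). In intestine (Epi 1.60 to 3.46, Mes 0.40 to 4.00) and liver (Epi 1.65 to 3.15, Mes 1.26 to 3.15) the ranges overlapped and no difference was called. Col18a1 of intestine MC fell with day, as described further on. The intestine values thus pool days that differed, and Mes and Epi were not tested within a day. The Mes-minus-Epi difference of each organ against the mean of the other 3 organs was −2.18 ± 0.47 in skin (adjusted p = 0.00105), −2.27 ± 0.47 in lung (adjusted p = 0.00148), 2.72 ± 0.54 in liver (adjusted p = 3.08e-04) and 1.73 ± 0.45 in intestine (adjusted p = 0.0120), beside 4.03%, 1.85%, 5.32% and 2.8% of all genes called in either direction in these tests (0.852% as lower in lung). The intestine value was not called without E9.5 embryo 3 or E10.5 embryo 1 (range 1.5 to 1.96), nor with a pseudocount of 1 TPM, which also ended the skin call (−1.78, adjusted p = 0.160).

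Type IV chains followed more weakly. Col4a2 was at 3.38 to 4.77 in skin Epi and 1.21 to 4.11 in skin Mes, with overlap, and was lower in Mes by 1.28 ± 0.32 (limma, adjusted p = 0.00491), a call that was lost without E11.5 embryo 1 (−0.85), with log2(TPM + 1) (−1.68, adjusted p = 0.0694) and with edgeR (−1.06, adjusted p = 0.361). Col4a1 was at 2.31 to 3.57 in lung Epi and 1.16 to 2.75 in lung Mes, and its difference of −1.30 ± 0.37 (adjusted p = 0.0215) was lost without any of 4 embryos (E9.5 embryo 2, E10.5 embryos 1 and 2, E11.5 embryo 2; range −1.58 to −1.11), with edgeR (−0.97, adjusted p = 0.218) and with thinned cells (−1.10, adjusted p = 0.112). The summed TPM of the basement membrane collagens was 876 ± 176 (SD, n = 6) in skin Epi and 288 ± 148 in skin Mes, and 384 ± 82.5 in lung Epi and 92.4 ± 43.0 in lung Mes. In liver the order was 78.3 ± 39.7 in Epi and 186 ± 88.5 in Mes (n = 6 and 3). These liver sets differ in day, since Mes come only from E9.5 and Epi also from E10.5 and E11.5. Of 15 other basement membrane genes, Mes were lower in 4 and higher in 2 in skin (2.32% and 1.38% of all genes), and lower in 1 and higher in 0 in lung (1.95% and 1.54%). Lama5, a laminin chain of epithelia, was lower in Mes by 2.53 in skin and 1.38 in lung, and in skin Agrn (−1.82), Lamb1 (−1.42) and the perlecan gene Hspg2 (−1.10) were lower too, while Nid1, a linker of laminin and type IV collagen (2.0), and the laminin chain Lama2 (1.03) were higher.

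**Figure D3:**
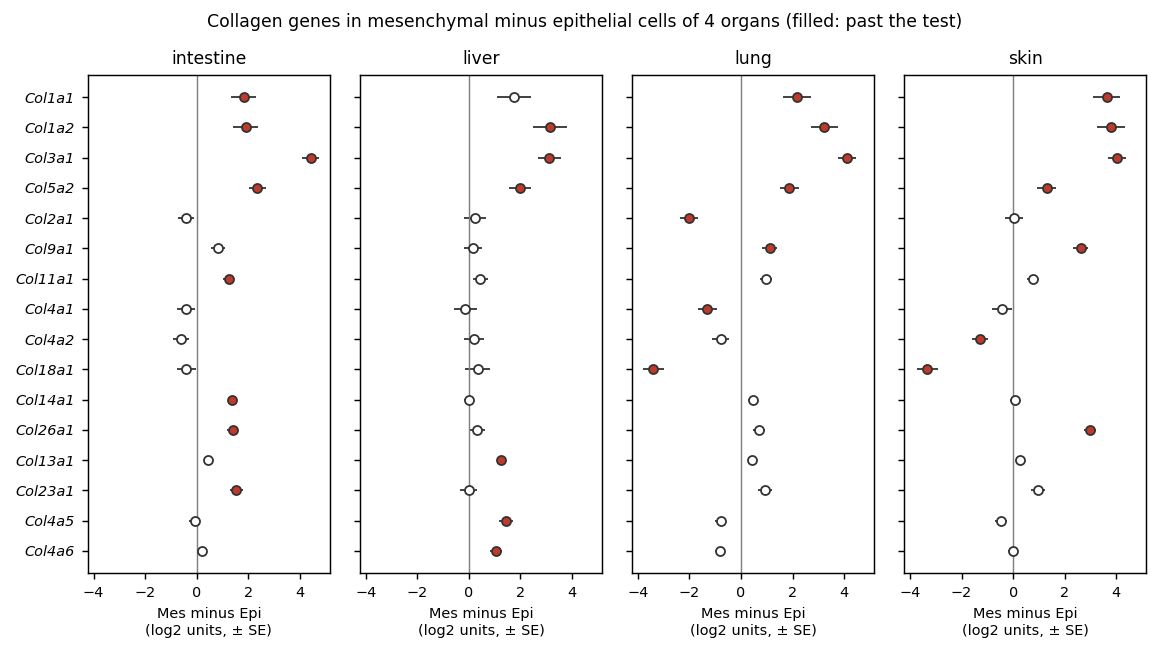
Mes-minus-Epi difference (log2 scale, with its SE) of 16 collagens called in at least 1 of intestine, liver, lung and skin, filled where the difference passed the test. Col3a1 lies at 3.12 or more in each organ, while Col18a1 lies at −0.40 in intestine, 0.35 in liver and −3.40 and −3.33 in lung and skin.

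The X-linked pair Col4a5 and Col4a6 separated the labels in liver. These genes, which build a type IV network of their own, start 1309 bases apart on opposite strands (Col4a5 at chrX:141475385-141689234, plus; Col4a6 at chrX:141165403-141474076, minus; mm10). In liver Mes 23 of 76 cells expressed both genes, 28 only Col4a5 and 8 only Col4a6. Because both were higher in liver Mes than in Epi, the sequences next to both starts are shown from RefSeq (GRCm38.p6), each on its own gene's strand: chrX:141475169-141475384 for Col4a5 and chrX:141474077-141474326 for Col4a6. Capitals mark a CCAAT in the first, which 30.5% of RefSeq windows of that length hold, and the reverse complement of GGGCGG in the second, held on either strand by 32.7%; the other motifs of the 3 searched are not in these letters.
Col4a5: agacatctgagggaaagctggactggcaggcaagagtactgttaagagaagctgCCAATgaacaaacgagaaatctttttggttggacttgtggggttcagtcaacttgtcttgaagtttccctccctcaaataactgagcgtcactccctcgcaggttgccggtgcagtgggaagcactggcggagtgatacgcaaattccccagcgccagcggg
Col4a6: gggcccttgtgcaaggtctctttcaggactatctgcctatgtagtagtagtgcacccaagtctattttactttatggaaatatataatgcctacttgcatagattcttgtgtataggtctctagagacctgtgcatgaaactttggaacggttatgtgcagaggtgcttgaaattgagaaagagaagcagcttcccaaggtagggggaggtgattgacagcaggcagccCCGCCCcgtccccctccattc

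In the 3 E9.5 embryos Col4a5 was at 2.18, 1.48 and 1.17 in liver Mes and at 0.00 to 0.46 in liver Epi, without overlap, and Mes were higher by 1.44 ± 0.28 (SE, n = 3 and 6 embryos; limma, adjusted p = 1.33e-04). Col4a6 was at 1.18, 0.66 and 1.57 in liver Mes and at 0.00 to 0.27 in liver Epi, a difference of 1.05 ± 0.21 (adjusted p = 3.53e-04) that fell under the threshold of 1 with the embryo as a block (0.95) and without E9.5 embryo 3 (0.83) and was not called with edgeR (4.40, adjusted p = 0.0641). With HiSeq 4000 embryos alone, which leave only E9.5 embryo 3 for liver Mes, the Col4a5 difference in liver was 1.07. In lung neither gene reached the size threshold between Mes and Epi (−0.83 ± 0.18 for Col4a6 and −0.79 ± 0.22 for Col4a5). Col4a6 was at 0.23 to 2.23 in lung Epi and 0.10 to 0.46 in lung Mes, with overlap. Against the mean of the other organs, which holds the liver difference, lung was at −1.24 ± 0.21 (adjusted p = 6.70e-05) for Col4a6 and −1.09 ± 0.26 (adjusted p = 0.00884) for Col4a5, and liver at 1.27 ± 0.24 and 1.89 ± 0.30. With edgeR the lung values (adjusted p = 0.0898 and 0.326) and the liver value of Col4a6 (adjusted p = 0.177) were not called. The lung value of Col4a5 was lost without E10.5 embryo 2 or E11.5 embryo 2 (as low in size as −0.78). The transmembrane collagen Col13a1 was also higher in liver Mes, at 1.28, 1.06 and 1.49 against 0.00 to 0.05 in Epi (38 of 76 and 0 of 48 cells at the expressed level, the latter allowing up to 6.25% for counting error over pooled cells alone), by 1.26 ± 0.17 (adjusted p = 2.58e-07). Liver Mes stood apart in markers as well: 4 of 5 cardiomyocyte and 3 of 4 epicardial markers were higher in them, with summed levels of 7.84 to 27.7 against 0.00 to 6.13 in liver Epi and of 5.13 to 11.6 against 0.00 to 1.11, with no marker of either list at 0 in these cells, and the part of this in the liver collagens was not tested. Liver Mes come only from E9.5, so organ and day cannot be told apart for them.

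For Col26a1 and Col9a1 the difference in skin exceeded the mean of the other organs by limma but not by edgeR. Col26a1 was at 3.13 to 4.22 in skin Mes, expressed in 75 of 77 cells, and at 0.20 to 1.01 in skin Epi, without overlap, with a difference of 3.0 ± 0.23 (SE, n = 6; limma, adjusted p = 7.24e-14). It was also called in intestine (1.39 ± 0.22), and the skin difference exceeded the mean of the other organs by 2.20 ± 0.27 (adjusted p = 6.19e-08). Col9a1 was at 2.53 to 4.53 in skin Mes and 0.23 to 1.09 in skin Epi, a difference of 2.62 ± 0.29 (adjusted p = 1.49e-09), which exceeded the other organs by 1.92 ± 0.34 (adjusted p = 5.74e-05). With edgeR these excesses were 0.51 and 0.13 and were not called. Col9a1 in lung passed with 1.12 ± 0.29 (adjusted p = 0.00859) but not without E9.5 embryo 2 (0.97), nor in the HiSeq 4000 embryos alone (0.97). Col5a2 in skin (1.30 ± 0.36, adjusted p = 0.0116) was lost without E9.5 embryo 2 or E11.5 embryo 1 (range 0.96 to 1.54), with edgeR (0.94, adjusted p = 0.467) and in the HiSeq 4000 embryos alone (0.96).

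Among cartilage collagens, Col2a1 was also high in epithelial cells. In lung Epi it was at 1.75 to 3.61 (median 2.90), expressed in 88.5% of cells, and in lung Mes at 0.18 to 1.63 (median 0.78), expressed in 21.6%. No lung Mes embryo reached the lung Epi range, and Mes were lower by 2.01 ± 0.34 (SE, n = 6; limma, adjusted p = 2.92e-05). Lung Epi means rest on 3 cells in E9.5 embryo 2 and in E11.5 embryo 2. In skin, Epi at 3.33 ± 0.88 (SD, n = 6) and Mes at 3.36 ± 1.05 did not differ by the test, and lung differed from the other organs by −1.97 ± 0.40 (adjusted p = 0.00116), which edgeR did not call (−2.06, adjusted p = 0.261).

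In intestine, the collagens higher in Mes than in Epi included a fibril-associated and a transmembrane one. Col14a1, which binds the surface of collagen fibrils, was at 0.77 to 2.27 in intestine Mes and 0.00 to 0.06 in intestine Epi, a difference of 1.36 ± 0.15 (SE, n = 7; limma, adjusted p = 1.08e-09). The difference exceeded that of the other organs by 1.18 ± 0.18 (adjusted p = 8.49e-06), which edgeR did not call (2.63, adjusted p = 0.595). Col23a1 was at 0.88 to 2.84 in intestine Mes and 0.03 to 0.64 in intestine Epi and differed by 1.54 ± 0.25 (adjusted p = 9.35e-06), and Col11a1 differed by 1.25 ± 0.21 (adjusted p = 2.83e-05). For Col23a1 and Col11a1 the intestine difference was not called against the mean of the other organs. Conversely, Col17a1 was found in skin Epi, in 29.1% of 79 cells, and reached the expressed level in 0 of 52 lung Epi cells, 0 of 110 intestine Epi cells and 0 of 48 liver Epi cells, which allows up to 5.77%, 2.73% and 6.25% of cells at that level. These limits cover counting error over pooled cells alone and not molecules missed at this depth. Col7a1, the anchoring fibril of skin, was expressed in 12.7% of skin Epi cells. The epithelial markers passed the test as lower in Mes for 6 of 6 in intestine, lung and skin and 5 of 6 in liver.

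MC cells of heart, somite, intestine, lung, liver and skin were compared next, each organ against the mean of the other 5. Skin MC were higher in 10 collagens of 5 classes and lower in none, against 1.09% of 15814 genes higher there. Heart was lower in 4 (1.32%) and higher in 1 (1.35%), somite lower in 2 (0.613%) and higher in 2 (0.556%), and intestine lower in 2 (0.639%) and higher in 1 (0.613%). Lung was lower in 2 collagens (0.335%), and liver was lower in 1 (0.0822%) and higher in 1 (0.746%).

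In skin MC, both type I chains had the highest mean of the 6 organs. Col1a1 was at 3.18 to 5.87 (median 4.95) there, against embryo ranges of 0.31 to 2.97 in heart, 0.87 to 1.88 in somite, 1.06 to 3.92 in intestine, 0.45 to 5.37 in lung and 1.05 to 3.01 in liver. Only intestine and lung embryos reached the skin range, and skin was higher by 2.53 ± 0.44 (SE; limma, adjusted p = 1.55e-04). Col1a2 (4.40 to 6.84) was higher by 2.35 ± 0.41 (adjusted p = 1.70e-04) and Col3a1 (5.32 to 6.78) by 1.92 ± 0.35 (adjusted p = 2.86e-04). Of the 7 cartilage collagens 3 were higher in the same cells. Col2a1 was at 1.39 to 4.57 in skin MC and higher by 2.18 ± 0.34 (adjusted p = 2.80e-05), Col9a1 at 2.24 to 4.53 and higher by 2.10 ± 0.36 (adjusted p = 1.44e-04), and Col11a1 at 2.01 to 3.08 and higher by 1.65 ± 0.17 (adjusted p = 1.36e-08). Col11a1 of skin overlapped only intestine, whose highest embryo was at 2.30. Col26a1 was at 2.73 to 4.18 and higher by 2.24 ± 0.20 (adjusted p = 3.33e-10). Col5a2 (1.39 ± 0.25) and Col4a2 (1.43 ± 0.26) were higher as well. Col12a1, which bridges fibrils in skin and tendon, reached only 1.0 ± 0.20 and was lost without either E11.5 embryo (as low as 0.66) and with thinned cells (0.96). In skin MC 3 of 5 mesenchyme markers were higher too (summed level 10.460 to 17.0, at most 10.2 in other organs, none of the 5 at 0), whose part in these values was not tested, and E11.5 embryo 2 had only 4 skin MC cells. The receptor Ddr2, which binds fibrillar collagen, was higher in skin by 1.74, and Pcolce by 1.88.

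Somite MC, the cells that give rise to vertebrae, muscle and dermis, differed in 4 collagens. Col26a1 was at 2.59 to 3.15 (median 2.75) in somite MC, expressed in 89.1% of cells, with the highest embryo of heart at 0.76, of lung at 1.26, of liver at 0.71 and of intestine at 2.24. Somite was thus above each of these and next to skin, and it was higher by 1.55 ± 0.18 (SE, n = 7; limma, adjusted p = 4.66e-07). Col2a1 was at 1.47 to 4.19 and higher by 1.60 ± 0.32 (adjusted p = 0.0010). Col5a2 was at 0.21 to 1.15 against 1.15 or more in each embryo of the other organs, and lower by 1.87 ± 0.24 (adjusted p = 1.47e-06). Col1a1 was lower by 1.32 ± 0.41 (adjusted p = 0.0399), but without 5 of the embryos in turn (all but E9.5 embryos 2 and 3) it was not called (−1.5 to −1.14), nor without the filter on low genes, which left 2 higher and 1 lower.

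Cartilage of the axial skeleton comes from the sclerotome, so somite MC with Pax1 or Pax9, its marker genes, were compared with the rest. Col9a1 was expressed in 69.7% of the 99 marked and 22.3% of the 103 other cells pooled over embryos. As means over embryos these shares were 54.0 ± 39.4% (SD, n = 7) and 27.3 ± 27.3%. Its level varied from 0.09 to 4.20 and from 0.14 to 3.61 between embryos. Of 31 collagens tested, 0 passed limma and 0 passed edgeR, with 1 (Col6a3) at an unadjusted p under 0.05, beside 0.00773% of 12933 genes. Col2a1 averaged 2.82 ± 1.33 (SD, n = 7) in marked and 2.59 ± 0.99 in other cells.

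In heart MC 2 of the 8 interstitial fibrillar collagens, Col26a1 and Col23a1 were lower by limma. Col3a1 was at 1.63 to 4.00 (median 2.73) in 6 embryos and lower by 1.95 ± 0.35 (SE; limma, adjusted p = 8.71e-05), overlapping somite, intestine, lung and liver. Col1a2 was at 1.02 to 3.85 and lower by 1.47 ± 0.41 (adjusted p = 0.00995). With edgeR on summed UMIs these differences were −0.66 (adjusted p = 0.174) and −0.22 (adjusted p = 0.805), and the call of Col1a2 was also lost with thinned cells (−1.22, adjusted p = 0.0504) and in the HiSeq 4000 embryos alone (−1.32, adjusted p = 0.0588). EdgeR split its heart calls into 5 higher and 3 lower. Col26a1 was at 0.17 to 0.76, below every embryo of somite and skin, and lower by 1.34 ± 0.20 (adjusted p = 4.03e-06). Col23a1, at 0.00 to 0.22, was lower by 1.02 ± 0.24 (adjusted p = 0.00242), which was lost without E11.5 embryo 2 (range −1.08 to −0.90). Col18a1 was at 1.63 to 3.80 in heart and higher by 1.17 ± 0.34 (adjusted p = 0.0116), in 4 of 6 embryos, and was not called without E10.5 embryo 1 (range 1.03 to 1.42). Col9a3 averaged 0.90 ± 0.47 (SD, n = 6) in heart, expressed in 27.7% of cells, and 0.36 or less in the other organs, which did not reach the threshold. All 5 cardiomyocyte markers were higher in heart (summed level 31.7 to 36.4, none at 0), as were 3 of 4 epicardial and 2 of 5 blood markers, and 2 of 5 mesenchyme markers were lower (1.69 to 5.74); whether the mixture of these cells sets the collagen levels was not tested.

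**Figure D4:**
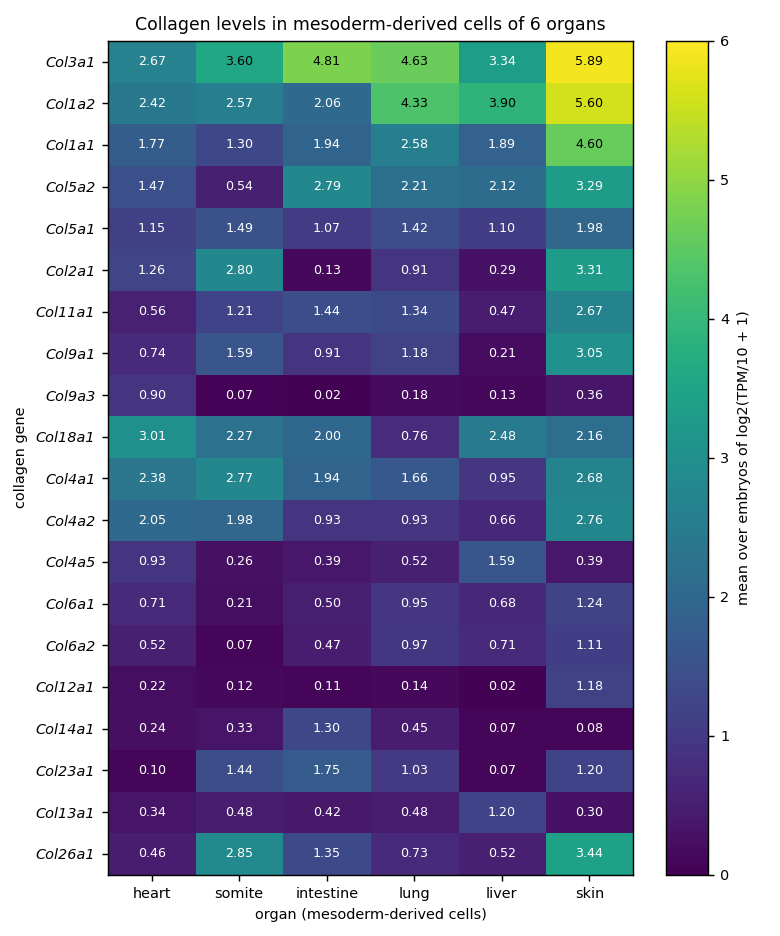
Mean level over embryos (log2(TPM/10 + 1), printed in each cell) of 20 collagens in MC cells of 6 organs. Skin has the highest mean for Col1a1 (4.60), Col1a2 (5.60) and Col3a1 (5.89), somite and skin for Col26a1, and intestine for Col14a1 (1.30).

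Intestine, lung and liver MC had few collagens of their own. In intestine, Col14a1 was at 0.66 to 2.27 (median 1.37) and higher by 1.04 ± 0.13 (SE, n = 7; limma, adjusted p = 1.36e-06), a call that was lost without E9.5 embryo 2 or E11.5 embryo 1 (range 0.90 to 1.15). Col2a1 was at 0.00 to 0.35 and lower by 1.61 ± 0.32 (adjusted p = 8.63e-04), and Col1a2 was at 1.06 to 3.62 and lower by 1.77 ± 0.39 (adjusted p = 0.00257). Intestine MC also held 4 of 6 epithelial markers at a higher level (summed 7.36 to 13.8, none at 0), whose part was not tested. Lung MC were low in Col18a1, at 0.36 to 1.63 (median 0.62) and lower by 1.53 ± 0.34 (adjusted p = 0.00488), and Col26a1, at 0.31 to 1.26, was lower by 1.01 ± 0.20 (adjusted p = 0.00136), which was lost without any of E9.5 embryos 2 and 3 and E10.5 embryos 1 and 2 (range −1.14 to −0.91). With edgeR the splits into higher and lower were 3 and 3 in intestine (also with log2(TPM + 1), and 2 and 2 with thinned cells) and 2 and 2 in lung. Liver MC, from 3 E9.5 embryos, held Col4a5 at 2.20, 1.36 and 1.23, above most embryos of the other organs (heart up to 1.33), and higher by 1.08 ± 0.20 (adjusted p = 9.28e-04). This and the lower Col26a1 (−1.18) were lost without E9.5 embryo 1 (0.76 and −0.98) and with edgeR (adjusted p = 0.120 and 0.172). In the HiSeq 4000 embryos alone, which leave only E9.5 embryo 3 for liver MC, these differences were 0.68 and −0.98.

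Change with time was tested as a slope per day from E9.5 to E11.5 in MC of the 5 organs with embryos on each day. Lung MC rose in 5 of 41 collagens (0.979% of 15631 genes rose) and skin MC in 7 (0.742%), while intestine MC fell in 2 (0.736%). In heart (3.76% of genes in either direction) and somite (0.262%), 0 collagens passed limma and 0 passed edgeR, with 8 and 6 of 41 at an unadjusted p under 0.05.

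The largest rises were those of type I collagen in lung. Col1a2 was at 2.23 and 2.09 in E9.5 embryos 2 and 3, at 4.71 and 3.82 at E10.5 and at 7.02 and 6.08 at E11.5. Each day lay above the one before without overlap, and the slope was 2.19 ± 0.32 per day (SE, n = 6 embryos; limma, adjusted p = 7.26e-05). Col1a1 was at 0.77 and 0.45, then 2.55 and 1.80, then 5.37 and 4.52, with a slope of 2.16 ± 0.32 (adjusted p = 9.83e-05). These slopes exceeded the mean of the other 4 organs by 1.71 ± 0.35 (adjusted p = 0.00788) and 1.74 ± 0.36 (adjusted p = 0.00762), which were lost without E11.5 embryo 1 and with edgeR (1.15 and 1.89, adjusted p = 0.437 and 0.190); the first was also lost without E9.5 embryo 3. In the HiSeq 4000 embryos alone the slopes were 2.24 and 2.32, both called. Type VI collagen rose as well: Col6a1 was at 0.14 and 0.13, then 1.0 and 0.48, then 2.20 and 1.74, with a slope of 0.92 ± 0.14 (adjusted p = 1.67e-04). Col6a2 (0.76) and Col6a3 (0.70) were not called without E11.5 embryo 1 (0.50 and 0.31), Col6a3 also not without E9.5 embryo 2 or 3 or in the HiSeq 4000 embryos alone (0.79, adjusted p = 0.112), and neither with edgeR (adjusted p = 0.215 and 0.185). Lung MC also rose in Lox, which cross-links collagen (1.33), in Pcolce (0.98) and in Sparc (1.14), 3 of 11 processing genes. E11.5 embryo 1 had 8 lung MC cells.

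**Figure D5:**
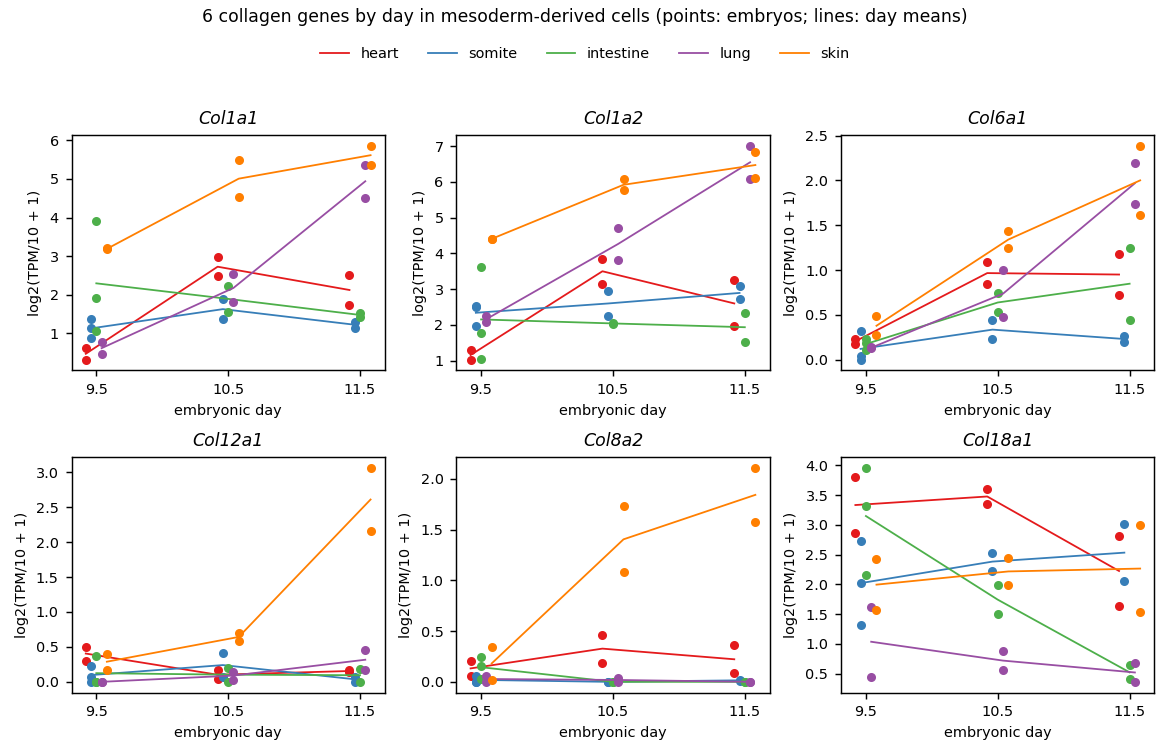
Level (log2(TPM/10 + 1)) of 6 collagens by embryonic day in MC of heart, somite, intestine, lung and skin, with a point for each embryo and lines through the day means. Col1a1 and Col1a2 rise on each day in lung, Col12a1 and Col8a2 rise in skin, and Col18a1 falls in intestine to 0.64 and 0.40 at E11.5.

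In skin MC the 7 collagens that rose were of several classes, and the lowest adjusted p values were those of Col8a2 and Col12a1. Col12a1 was at 0.40 and 0.17 in E9.5 embryos 2 and 3, 0.70 and 0.58 at E10.5 and 3.06 and 2.15 at E11.5, a slope of 1.16 ± 0.13 (SE, n = 6; limma, adjusted p = 1.80e-06). Col8a2, a chain of the hexagonal network of type VIII collagen, was at 0.02 and 0.34, then 1.73 and 1.08, then 2.11 and 1.57, a slope of 0.83 ± 0.09 (adjusted p = 1.25e-06). By day means, the larger step came after E10.5 for Col12a1 and before it for Col8a2. Both exceeded the other organs, by 1.16 ± 0.14 (adjusted p = 1.54e-05) and 0.84 ± 0.10 (adjusted p = 7.68e-06). EdgeR called neither excess (adjusted p = 0.964 and 0.467). Col6a1 (0.81), Col6a2 (0.69), Col5a1 (0.88), Col5a2 (0.94) and Col1a1 (1.21, adjusted p = 0.0410) rose too, but Col1a1 and Col5a2 were each lost without any of 5 embryos (1.12 to 1.41 and 0.83 to 1.10), Col5a1 without E9.5 embryo 2 or E11.5 embryo 2 and Col6a2 without E9.5 embryo 3. None of these 7 passed edgeR on summed UMIs (adjusted p = 0.380 for Col12a1 and 0.390 for Col8a2), which called 1 other collagen, Col14a1 (named after its value was seen), and in the HiSeq 4000 embryos 4 were called (1.32 for Col12a1 and 0.71 for Col8a2). Skin MC of E11.5 embryo 2 rest on 4 cells.

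Intestine MC lost Col18a1. Its level was 3.96, 3.32 and 2.16 in the 3 E9.5 embryos, 1.5 and 1.99 at E10.5 and 0.64 and 0.40 at E11.5. The days did not overlap, and it fell by 1.32 ± 0.25 per day (SE, n = 7; limma, adjusted p = 0.00270), though in the HiSeq 4000 embryos alone it fell by 0.88 (adjusted p = 0.123). In the same cells the keratins Krt8 and Krt18, from the list of 6 epithelial markers, fell by 1.61 and 1.48 per day. Slopes of the rest of that list are not given here, and the part of these markers in the fall of Col18a1 was not tested. Col26a1 fell by 0.57 ± 0.14 (adjusted p = 0.0243), which was lost without any of 4 embryos (E9.5 embryo 2, E10.5 embryo 1, E11.5 embryos 1 and 2; −0.68 to −0.47), with edgeR (adjusted p = 0.223) and in the HiSeq 4000 embryos alone (adjusted p = 0.154). E11.5 means rest on 7 and 8 cells. Heart has no cells of E9.5 embryo 3, so that its E9.5 values come only from HiSeq 2500 and day and instrument cannot be told apart there.

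Slopes of Epi cells were tested in the same way in 4 organs. In skin Epi 3 of 36 collagens rose (0.59% of 14414 genes rose), in lung Epi 1 (0.305%), and in intestine (1.19% in either direction) and liver (1.23%) 0 passed limma, with 3 of 36 at an unadjusted p under 0.05 in each and 0 and 1 (Col4a2, lower with day) called by edgeR. Col17a1 was at 0.00 and 0.02 in E9.5 embryos 2 and 3, 0.62 and 0.14 at E10.5 and 1.64 and 1.29 at E11.5, a slope of 0.73 ± 0.07 (SE, n = 6; limma, adjusted p = 4.94e-07). Col12a1 was at 0.38 and 0.17, then 0.43 and 0.30, then 2.08 and 2.04, a slope of 0.89 ± 0.12 (adjusted p = 1.49e-05), so that both E11.5 embryos stood far above the earlier days in Epi as in MC of skin. Col8a1, the other type VIII chain, was at 0.00 and 0.21, then 1.08 and 0.19, then 1.48 and 1.41, a slope of 0.67 ± 0.10 (adjusted p = 5.87e-05). Each exceeded the slopes of the other Epi sets, by 0.73 ± 0.08, 0.91 ± 0.13 and 0.70 ± 0.11 in that order. EdgeR called none of these excesses (adjusted p of 0.325 or more). In lung Epi Col27a1, a fibrillar collagen of cartilage and epithelia, was at 0.00 and 0.74, then 1.32 and 0.99, then 2.38 and 1.95 (slope 0.90 ± 0.20, adjusted p = 0.0221), and was not called without E9.5 embryo 2 or either E11.5 embryo, nor in the HiSeq 4000 embryos alone (0.75, adjusted p = 0.0767). None of these 4 slopes passed edgeR, whose adjusted p ranged from 0.190 to 0.650, and the 3 of skin were called in the HiSeq 4000 embryos alone (0.77, 1.05 and 0.65).

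Finally, MC cells with both Pecam1 and Cdh5, which mark endothelium, were compared with MC cells with neither, leaving out 37 cells with only 1 of them. There were 26 such cells, 19 of them from heart, and only E9.5 embryos 1 and 2 had at least 3 (6 and 14 cells), so the comparison sets 2 embryos against 7. Both embryos share a day and an instrument label, and heart gave 194 of the 812 cells with neither marker. Marking thus cannot be told apart from organ, day or instrument in this fit. Of the collagens called here, Col18a1 was also higher and Col26a1 also lower in heart MC, and the rest were not called there. Marked cells were higher in 4 collagens (3.72% of 15724 genes) and lower in 3 (0.623%). Col18a1 was at 4.95 and 5.60 in marked cells and 1.60 to 2.53 (median 1.98) in the others, a difference of 3.20 ± 0.28 (SE; limma, adjusted p = 4.92e-05). Col4a1 was at 3.96 and 4.42 against 1.70 to 2.53 (2.04 ± 0.23, adjusted p = 3.39e-04), and Col4a2 at 3.01 and 3.75 against 1.13 to 2.0 (1.76 ± 0.27, adjusted p = 0.00194). None of these ranges overlapped. Of 15 other basement membrane genes 3 were higher, Hspg2 (2.67), Nid1 (2.02) and Lama4 (1.56), beside the same 3.72% of all genes. Col26a1, at 0.00 and 0.22 against 0.94 to 1.85, was lower by 1.44 ± 0.24 (adjusted p = 0.00322), Col1a1 by 1.64 ± 0.46 and Col2a1 by 1.13 ± 0.29. Col5a2, at 2.87 and 2.77 against 0.83 to 2.13, was higher by 1.18 ± 0.28. Without 1 embryo the calls of Col1a1 (any of 5 embryos, −2.02 to −1.48), Col2a1 (E9.5 embryo 2 or E11.5 embryo 2, −1.29 to −0.98) and Col5a2 (E9.5 embryo 1, 0.99) were lost. So were Col1a1 and Col5a2 with edgeR (adjusted p = 0.0733 and 0.0550) and Col1a1 and Col2a1 with thinned cells (adjusted p = 0.0804 and 0.0565). The split of 4 higher and 3 lower became 4 and 5 with edgeR and 4 and 1 with thinned cells. With the embryo as a block 0 of the 7 were called (Col18a1 2.90, adjusted p = 0.485; Col1a1 −0.95, adjusted p = 0.557), nor were Hspg2, Nid1 and Lama4. Of 5 blood markers 3 were higher in the marked cells (summed level 11.0 to 13.7 against 4.17 to 7.74, with Gata1 at 0), and their part was not tested.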

How the data were processed

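Per the labels and the study's methods, cells of 7 mouse embryos were sequenced with a modified single-cell tagged reverse transcription protocol that tags each molecule with a unique molecular identifier (UMI), and the authors processed the reads with CASAVA 1.8, TopHat2 2.0.12 and HTSeq (version and strand setting not given in the sources used here) on mm10. The deposited values, which the authors named TPM, are CPM values, that is UMI counts scaled to 1000000 in each cell with no gene length, rounded to 0.01. Whole UMIs were recovered for 100% of the 11760022 values above 0 (tolerance 0.05).

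The 32 samples hold 1916 cells, of which 1851 passed 2000 genes and the study kept 1819; groups, Epi and Mes labels came from its cell table. No doublet caller was run, and 0 cell labels were shared between libraries. Labels give the sample and the cell names the embryo, since at E10.5 and E11.5 a sample mixes the embryos of that day, and E9.5 embryo 3 has samples that pool organs. Embryos are the replicates. Embryo means of log2(TPM/10 + 1) over at least 3 cells were fitted for genes expressed in at least 3 compared cells with limma 3.58.1 (R 4.3.3; trended empirical Bayes, two-sided, Benjamini-Hochberg within each contrast). Slopes used day as a number. The same embryos enter the groups compared, and their deviations from group means correlated at 0.0925 to 0.491, so a fit with embryo as a block was an alternative. Other alternatives were log2(TPM + 1), no filter, edgeR 4.0.16 on summed whole UMIs, cells thinned to 100000 UMIs, HiSeq 4000 embryos alone and each embryo left out.

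The members, classes and lists were chosen with earlier results of these data known. Named genes were 25 collagens of the main classes plus any other collagen called in a comparison. Positions are from GENCODE M21, promoters from RefSeq (35 of 44 members had one). Col21a1, also listed as fibril-associated, had no row in the deposited values and so was not used here. The tests were tested on simulated data.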

Additional observations from a re-analysis of the deposited data

Results flagged for a closer look

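Of 19 collagen levels of the major groups with a mean of at least 1, 2 held an embryo far from the others by Dixon's 95% limit, where chance gives about 1 in 20: Col3a1 in MC of E9.5 embryo 1 was low (1.67), and Col18a1 in EC of E10.5 embryo 2 was high (4.33).

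The Mes-minus-Epi difference of an organ differed from the mean of the other 3 organs for 15 values (limma, adjusted p under the threshold). For Col18a1 it was 1.73 in intestine, 2.72 in liver, −2.27 in lung and −2.18 in skin. For the type IV chains Col4a5 and Col4a6 it was 1.89 and 1.27 in liver and −1.09 and −1.24 in lung. Skin stood apart for Col26a1 (2.20) and Col9a1 (1.92), intestine for Col14a1 (1.18) and lung for Col2a1 (−1.97). Liver was lower for Col9a1 (−1.36, reversed in direction with edgeR and lost without E9.5 embryo 1), Col26a1 (−1.36, lost without E9.5 embryo 1, −1.07) and Col23a1 (−1.15, lost without any of 5 embryos), and liver Mes come only from E9.5. Of these values Col18a1 in each organ and Col4a5 in liver were called with edgeR too, and the other 10 were not. In the HiSeq 4000 embryos alone, which leave only E9.5 embryo 3 for liver Mes, the 3 lower liver values were −1.22, −0.96 and −1.10.

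Slopes per day in MC differed from the mean of the other 4 organs for 9 values. Lung rose more in Col1a1 (1.74) and Col1a2 (1.71), and skin in Col12a1 (1.16) and Col8a2 (0.84), none of the 4 called with edgeR. Intestine was lower for Col1a1 (−1.48), Col18a1 (−1.22), Col26a1 (−0.83) and Col13a1 (−0.52), none of which was called in the HiSeq 4000 embryos alone. Col1a1 in intestine was at 1.90, 3.92 and 1.06 in the E9.5 embryos, 1.56 and 2.23 at E10.5 and 1.53 and 1.41 at E11.5, so that E9.5 embryo 2 lay far above the others, and the difference was lost without it. Heart was lower for Col2a1 (−1.27, adjusted p = 0.0468, lost without any of 6 embryos), which was at 1.55 and 2.93 at E9.5, 0.85 and 0.89 at E10.5 and 0.72 and 0.58 at E11.5. In Epi cells skin rose more than the other organs in Col12a1 (0.91), Col17a1 (0.73) and Col8a1 (0.70), none of them called with edgeR.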

How the results depend on the processing

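The 127 collagen calls were recomputed under 1644 combinations with an alternative: 1454 kept their direction and call, 189 kept the direction and lost the call, and 1 reversed, the liver excess of Col9a1 in Mes minus Epi (0.21 with edgeR against −1.36). Calls were lost for 43 of the collagen results with edgeR on summed UMIs, 22 of 120 with HiSeq 4000 embryos alone, 9 with thinned cells, 8 with log2(TPM + 1), 5 without a filter and 8 with the embryo as a block, and for 94 of 889 with 1 embryo left out; the causes were not tested. Among counts of collagens called, the replicate block took the endothelial-marked cells from 7 to 0 and moved no other count by over 1.5 times. With log2(TPM + 1) the counts were 11 in HC, 14 in MC, 9 in NC, 17 in lung and 16 in skin Mes against Epi, and 9, 7, 6 and 5 in MC of heart, somite, intestine and liver. With edgeR they were 14 in EC, 29 in HC, 31 in MC and 17 in NC, then 15, 10 and 15 in intestine, liver and lung Mes against Epi, 8, 13, 6 and 4 in MC of heart, somite, intestine and lung, 1, 3 and 1 for slopes of MC in intestine, lung and skin, and 0, 1 and 0 for slopes of Epi in lung, liver and skin. With HiSeq 4000 embryos alone they were 5 in NC, 1, 0 and 4 for slopes of MC in somite, intestine and skin and 0 for Epi slopes in lung. There liver MC and liver Mes kept only E9.5 embryo 3, and the endothelial-marked cells could not be fitted. With each embryo left out, the counts ranged from 0 to 1 for Epi slopes in lung and 3 to 5 in skin, from 0 to 2, 1 to 3, 3 to 5 and 4 to 9 for MC slopes in somite, intestine, lung and skin, from 0 to 3 in liver MC and from 1 to 2 in lung MC. Depth per cell limits levels near that of 1 UMI. Molecules can be missed, but in a shallow cell 1 UMI alone reaches the expressed level. Shares of cells expressing a low collagen can thus be too low or too high.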
